A study of Mus musculus with 116 samples.

Results

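Deep-layer projection neurons sit in layers V and VI of the cerebral cortex and send axons out of it, and 10 genes that mark them or set their identity were followed here: Bcl11b, Fezf2, Tbr1, Sox5, Foxp2, Tle4, Zfpm2, Ldb2, Crym and Nr4a2. The 10 were chosen by name out of the 53379 genes counted, not by a cut on their values, but with earlier results of these data known. They were read in 55 of the 68 libraries of green cells among 116 libraries in all, those with at least 1000000 uniquely aligned reads making up at least 60% of all reads. Each library came from cells sorted out of 2 to 3 pooled mouse cortices and sequenced with bulk Smart-Seq2, which copies full-length polyadenylated RNA. Nothing in the labels says which pools shared a litter, so the tests measure the spread between these pools.

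The green cells were labelled by mosaic recombination between cassettes on chromosome 7 (MADM), driven by Emx1-cre, which acts in the progenitors of cortical projection neurons and glia. Eed, a core subunit of Polycomb repressive complex 2 (PRC2), lies on the same chromosome, and so does Crym. In control-MADM (MADM7-GT/TG;Emx1-cre) all cells were Eed+/+. In Eed-MADM (MADM7-GT/TG,Eed;Emx1-cre) the green cells were Eed-/- and sparse within a heterozygous tissue. In cKO-Eed-MADM (MADM7-GT,Eed/TG,Eed;Emx1-cre) the green cells were Eed-/- and so was every other cell of the Emx1 lineage. Green cells of all 3 paradigms carried both copies of chromosome 7 from 1 parent, and the mice were of CD1 or mixed C57BL/6 and CD1 background. From the youngest age to the oldest, control-MADM had 5, 2, 3 and 5 libraries and Eed-MADM 8, 2, 5 and 9, while cKO-Eed-MADM had 4 at each age. Lysis buffer received the E12.5 cells and RNA extraction buffer those of later ages, so age and collection cannot be told apart there.

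Fezf2 is the zinc-finger factor that directs subcerebral identity in layer V, and Bcl11b (CTIP2) acts downstream of it in corticospinal neurons. Tbr1 directs corticothalamic identity in layer VI and represses the subcerebral program, while Sox5 delays it until the subplate and layer VI have formed. PRC2 methylates histone H3 at genes that are to stay silent, often at starts rich in CpG, and EED is needed for that activity.

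Start sites differed widely in CpG content among the members. Of the 10 genes, 6 were found in the RefSeq promoter table (GRCm38.p6), and stretches of up to 250 bases before the start of 3 whose counts differed between paradigms are shown 5′ to 3′, without exon, with each CpG in capitals.

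Nr4a2, chr2:57124004-57124253, minus strand: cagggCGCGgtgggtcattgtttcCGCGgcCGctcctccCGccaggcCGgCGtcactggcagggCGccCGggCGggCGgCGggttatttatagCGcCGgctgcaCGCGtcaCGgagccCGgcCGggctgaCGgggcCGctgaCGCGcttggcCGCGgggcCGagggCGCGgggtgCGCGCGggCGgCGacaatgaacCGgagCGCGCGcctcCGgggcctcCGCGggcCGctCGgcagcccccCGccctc

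Fezf2, chr14:12345960-12346115, minus strand: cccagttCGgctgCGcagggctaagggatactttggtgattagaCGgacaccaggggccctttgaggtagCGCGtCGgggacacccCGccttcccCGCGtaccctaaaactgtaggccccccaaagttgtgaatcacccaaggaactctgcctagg

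Sox5, chr6:143947107-143947356, minus strand, inside an intron of a longer Sox5 transcript: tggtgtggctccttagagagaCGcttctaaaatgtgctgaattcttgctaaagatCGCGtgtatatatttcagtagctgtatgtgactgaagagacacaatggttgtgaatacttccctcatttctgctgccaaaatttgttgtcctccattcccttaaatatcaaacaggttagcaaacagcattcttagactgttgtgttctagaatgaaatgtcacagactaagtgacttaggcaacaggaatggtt

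The Nr4a2 stretch held 44 CpG in 250 bases with 80% G or C, more CpG than 99.5% of 32851 promoter windows of the same length. The Fezf2 start used lies inside the annotated gene, whose 5′ end on the minus strand is at chr14:12348189. The window of that start held 14 CpG, 9 of them in the 156 bases printed, which was more than 70.6% of windows. At this Sox5 start the window held 3 CpG, more than 29.0% of windows, where the median window held 6. Among the genes found but not shown, Tle4 had windows with 24 and 35 CpG, more than 88.0% and 97.0% of windows. The Bcl11b window held 9 CpG and the Tbr1 window 5, more than 59.7% and 44.4% of windows. The Tbr1 window and the Tle4 window with 35 CpG lie inside the annotated genes, with exon up to the start used. The 5′ end of Tbr1 on the plus strand is at chr2:61802930, and its window begins at chr2:61804203. The CpG numbers are counts of letters and say nothing of which genes PRC2 bound in these cells.

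Depth differed by age. Reads on genes ranged from 865832 to 2359317 per library at E12.5 and from 2784557 to 7249098 at the later ages. Levels are given as CPM, the reads of a gene per 1000000 reads on genes with TMM scaling. All 55 libraries held at least 1 read of Bcl11b, Fezf2, Tbr1, Sox5, Foxp2, Tle4 and Nr4a2, while Zfpm2 and Ldb2 had a read in 54 and Crym in 51. Pan-neuronal genes, the check on the sorted cells, summed to 2746 to 12983 CPM over 12 genes at E13.5 and later. At P0 the range was 5499 to 10684 CPM in control-MADM, 6178 to 11297 CPM in Eed-MADM and 2746 to 8024 CPM in cKO-Eed-MADM. Red blood cell genes summed to between 5.82 and 94793 CPM at E12.5 and to at most 589 CPM at later ages. Their E12.5 medians were 6960 CPM in control-MADM, 2007 CPM in Eed-MADM and 49730.5 CPM in cKO-Eed-MADM, with overlapping ranges.

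Eed itself (chr7:89954654-89980983, GRCm38) was lower at P0 in both mutant paradigms, with reads remaining in every library. At P0 it stood at 28.3, 33.5, 31.2, 26.9 and 28.4 CPM in the control-MADM libraries, at 11.4 to 19.6 CPM in Eed-MADM with a median of 15.7 CPM, and at 16.1, 9.24, 9.17 and 12.5 CPM in cKO-Eed-MADM. The groups did not overlap with control-MADM, and the differences were called at P0 (adjusted p = 0.0132 in Eed-MADM, 0.000378 in cKO-Eed-MADM) and at E16.5 in cKO-Eed-MADM (adjusted p = 0.0314). At E16.5 in Eed-MADM it was lower in all 5 libraries and the adjusted p was 0.0889. At E13.5 it stood at 69.0 and 56.9 CPM in control-MADM, 50.6 and 27.5 CPM in Eed-MADM and 15.1 to 24.1 CPM in cKO-Eed-MADM. At E12.5 replicates 1 and 7 of the 8 Eed-MADM libraries, at 83.2 and 88.9 CPM, lay inside the control range of 81.1 to 159 CPM, while cKO-Eed-MADM lay below it at 35.8 to 47.7 CPM. No Eed difference from control-MADM was called at these 2 ages (adjusted p = 1 and then 0.886 for Eed-MADM, 0.245 and then 0.0933 for cKO-Eed-MADM, the younger age first). Counts over the whole gene do not separate the deleted part from the rest.

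The members did not move as a block in either mutant. At E16.5 Crym, Nr4a2 and Zfpm2 were higher and Sox5 was lower in cKO-Eed-MADM than in control-MADM, and at P0 Crym, Nr4a2, Zfpm2, Fezf2 and Foxp2 were higher and Tbr1 was lower. In Eed-MADM only Crym and Nr4a2 passed the test at E16.5 and only Fezf2 and Foxp2 at P0, all higher than in control-MADM. Bcl11b, Tle4 and Ldb2 passed in no comparison between paradigms at any age. In bulk RNA, fewer cells of a type cannot be told apart from less RNA per cell.

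**Figure D1:**
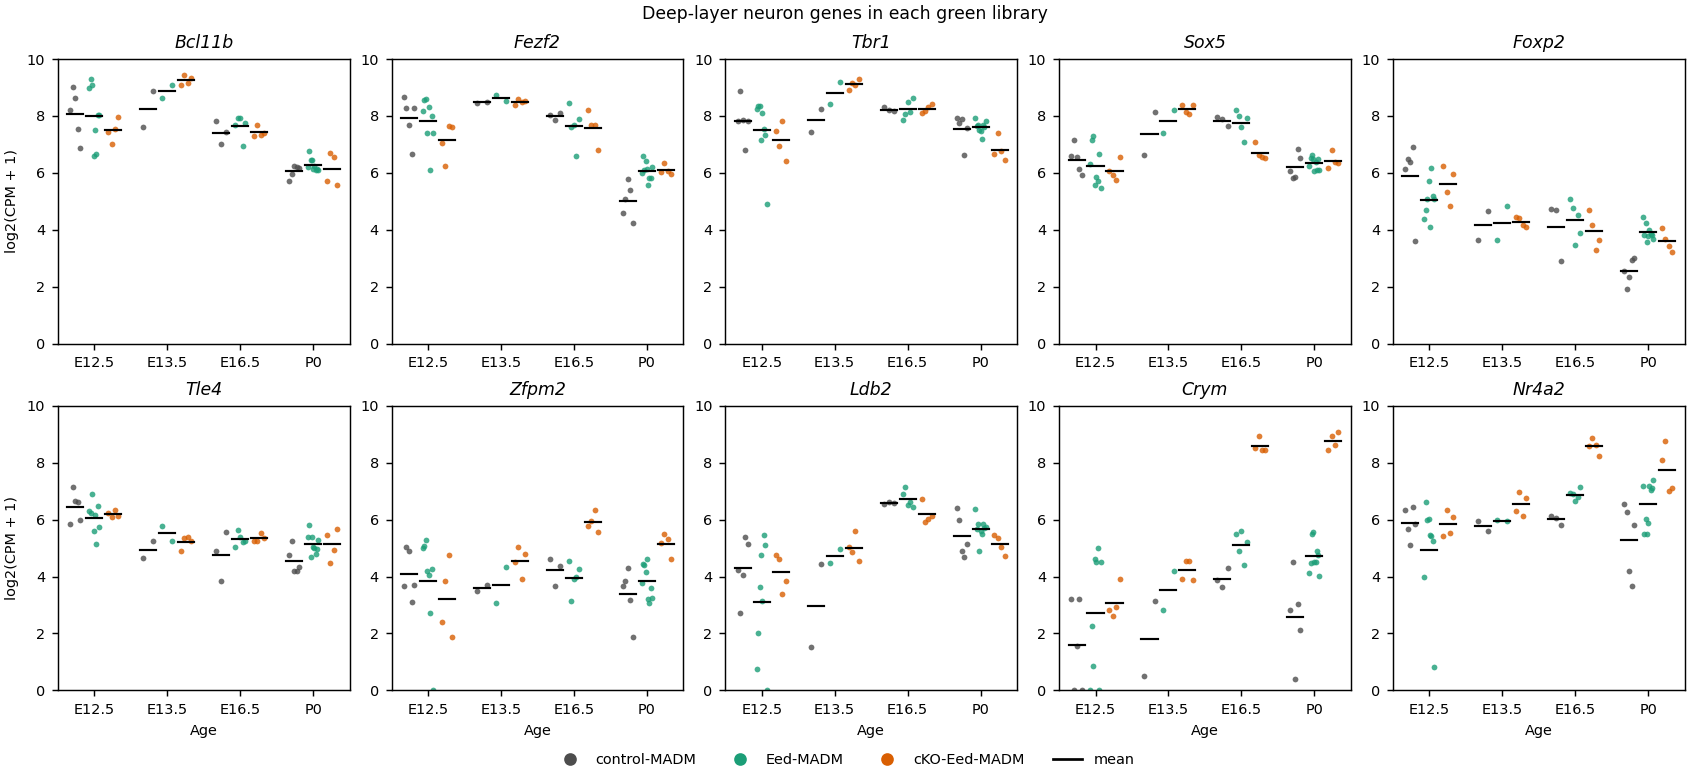
Levels of the 10 deep-layer genes in each green library, as log2(CPM + 1) on the vertical axis and age on the horizontal axis, with 1 point per library and a bar at the mean of each group. Crym in cKO-Eed-MADM sits between 350.3 and 536 CPM at E16.5 and P0, above every library of the other paradigms, while Bcl11b overlaps between paradigms at both ages.

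A gene was called where edgeR's Benjamini-Hochberg adjusted p over all genes tested at that age was under 0.05. At E16.5, 3 of the 10 members were called higher in cKO-Eed-MADM than in control-MADM, where 6.16% of 13359 genes were, and 1 was called lower, where 2.42% were. Against Eed-MADM the same 3 were higher (4.45% of genes) and the same 1 lower (2.58%). In Eed-MADM against control-MADM, 2 members were called higher, where 0.24% of genes were. That count was 2 in the full set and was 0 on leaving out any 1 of the 3 control-MADM libraries.

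At P0, 5 members were called higher in cKO-Eed-MADM than in control-MADM and 1 lower, where 14.2% of 14161 genes were called higher and 10% lower. Against Eed-MADM, 2 were higher (11.2% of genes) and 1 was lower (8.26%). Eed-MADM had 2 members above control-MADM, where 1.52% of genes were called higher. The median log2 fold change of the 10 members in cKO-Eed-MADM against control-MADM was 0.01 at E16.5 and 0.82 at P0, and that of all genes tested was 0.00 and -0.01. In Eed-MADM against control-MADM the members' medians were 0.15 and 0.50, where those of all genes tested were 0.01 and 0.02. All 10 members had a log2 fold change above 0 there at P0, but the lowest, that of Tbr1, was 0.0002. Both mutants were set against the same control libraries.

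**Figure D2:**
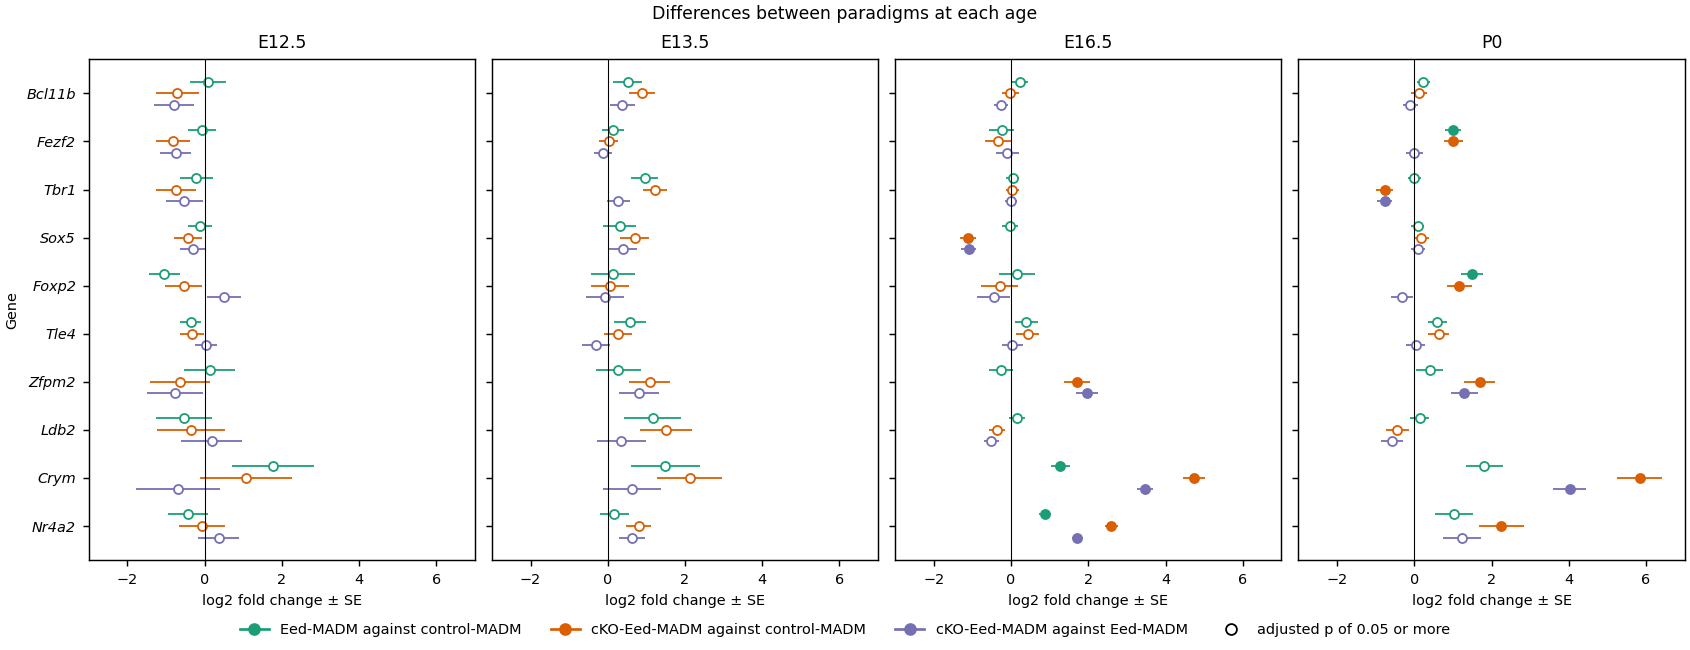
Log2 fold change (horizontal axis, bars ± SE) of each member (vertical axis) in the 3 comparisons of paradigms at each age, with filled points for an adjusted p under 0.05 and open points for the rest. Crym lies farthest to the right at E16.5 (4.74) and at P0 (5.84) in cKO-Eed-MADM against control-MADM, and no point is filled at E12.5 or E13.5.

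Among the subcerebral genes, Bcl11b was called in no comparison of paradigms, and its libraries overlapped between paradigms at E16.5 and P0. At E16.5 its level was 223, 128 and 171 CPM in control-MADM, 205, 241, 245, 122 and 215 CPM in Eed-MADM, and 155, 207, 159 and 167 CPM in cKO-Eed-MADM, with all 3 ranges overlapping. At P0 it was 52.0, 61.8, 74.7, 73.1 and 71.3 CPM in control-MADM, 67.7 to 108 CPM with a median of 73.0 CPM in Eed-MADM, and 52.0, 102, 93.1 and 46.1 CPM in cKO-Eed-MADM. The log2 fold change of cKO-Eed-MADM against control-MADM was -0.02 at E16.5 (95% interval -0.44 to 0.40) and 0.13 at P0 (-0.27 to 0.54). At E13.5 Bcl11b was at 194 and 468 CPM in control-MADM and at 547 to 696 CPM in cKO-Eed-MADM (log2 0.89 ± 0.33, adjusted p = 0.357), and at E12.5 the log2 value was -0.71 ± 0.55 (adjusted p = 0.863).

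Fezf2 was higher at P0 in both mutants. Its P0 level was 23.3, 33.1, 54.0, 40.9 and 17.9 CPM in control-MADM, 46.1 to 95.02 CPM with a median of 68.3 CPM in Eed-MADM, and 63.7, 80.6, 65.6 and 61.9 CPM in cKO-Eed-MADM. Every cKO-Eed-MADM library lay above every control library, and in Eed-MADM the lowest library lay below the highest control. The fold was 2.01 in Eed-MADM (log2 1.00 ± 0.21 SE, adjusted p = 0.0137) and 2.00 in cKO-Eed-MADM (1.00 ± 0.25, adjusted p = 0.0041), and the mutants differed from each other by 0.00 ± 0.22 on the log2 scale. At E16.5 the same gene stood at 263, 233 and 274 CPM in control-MADM, 353, 193, 207, 94.8 and 234 CPM in Eed-MADM, and 293, 202, 204 and 112 CPM in cKO-Eed-MADM, and no difference was called.

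Crym, which encodes mu-crystallin, a thyroid hormone binding protein used as a marker of corticospinal neurons, had the largest fold of the 10 members at E16.5 and P0. At E16.5 it was at 13.6, 11.3 and 18.6 CPM in control-MADM, 44.1, 28.6, 47.1, 20.3 and 36.5 CPM in Eed-MADM, and 368, 488, 352 and 352 CPM in cKO-Eed-MADM. No 2 of these groups overlapped. The fold over control-MADM was 26.7 in cKO-Eed-MADM (log2 4.74 ± 0.28, adjusted p = 1.92e-08) and 2.42 in Eed-MADM (1.28 ± 0.25, adjusted p = 0.0322), and cKO-Eed-MADM stood 11.02-fold above Eed-MADM (adjusted p = 2.85e-08). The Eed-MADM call depended on the libraries used. Its adjusted p was 0.17, 0.258 and 0.0778 without control-MADM replicate 1, 2 and 3, 0.0797 without Eed-MADM replicate 3 and 0.0575 without cKO-Eed-MADM replicate 3, which enters through the shared spread, and 0.105 in a fit of only the 2 groups.

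At P0 Crym was at 6.00, 21.8, 0.333, 7.10 and 3.35 CPM in control-MADM, 15.3 to 46.6 CPM with a median of 22.1 CPM in Eed-MADM, and 350.3, 486, 393 and 536 CPM in cKO-Eed-MADM. The cKO-Eed-MADM libraries lay 57.3-fold above control-MADM (log2 5.84 ± 0.58, adjusted p = 7.86e-07) and 16.3-fold above Eed-MADM (adjusted p = 2.24e-06). The Eed-MADM level was 3.52-fold that of control-MADM and was not called (log2 1.82 ± 0.48, adjusted p = 0.0632). Control-MADM replicate 2, at 21.8 CPM, was the 1 control library inside the Eed-MADM range, and without it the Eed-MADM difference was called (log2 2.72, adjusted p = 0.0013). DESeq2 also called it (adjusted p = 0.0206), as did edgeR with all green libraries (0.0427).

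Ldb2, a cofactor of LIM-domain transcription factors that is enriched in corticospinal neurons, was called in no paradigm comparison. Its E16.5 level was 93.8, 97.7 and 95.3 CPM in control-MADM, 119, 140.5, 89.6, 96.7 and 86.4 CPM in Eed-MADM, and 105, 59.9, 64.8 and 68.2 CPM in cKO-Eed-MADM. The cKO-Eed-MADM libraries other than replicate 1 lay below both other groups, and without that library Ldb2 was called lower than in Eed-MADM (log2 -0.72, adjusted p = 0.0148). At P0 it spread from 24.5 to 84.5 CPM within control-MADM alone, which covered the cKO-Eed-MADM libraries.

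Tbr1 was the member that was lower at P0 in cKO-Eed-MADM. It stood at 242, 215, 234, 97.4 and 192 CPM in control-MADM, at 145 to 240.3 CPM with a median of 198 CPM in Eed-MADM, and at 99.4, 167, 108 and 87.2 CPM in cKO-Eed-MADM. Control replicate 5, at 97.4 CPM, lay inside the cKO-Eed-MADM range and the other control libraries lay above it. The level in cKO-Eed-MADM was 1.71-fold lower than in control-MADM (log2 -0.77 ± 0.21, adjusted p = 0.0099) and 1.71-fold lower than in Eed-MADM (adjusted p = 0.0064), and the log2 fold change of Eed-MADM against control-MADM was 0.00 (95% interval -0.34 to 0.34). At E16.5 Tbr1 was at 318, 294 and 285 CPM in control-MADM and at 272, 291, 319.6 and 342 CPM in cKO-Eed-MADM, which overlapped.

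Sox5 was lower in cKO-Eed-MADM at E16.5 and not at P0. At E16.5 it was at 249, 236 and 199 CPM in control-MADM, 298, 254, 196, 135 and 242 CPM in Eed-MADM, and 136, 97.6, 94.4 and 92.0 CPM in cKO-Eed-MADM. Every cKO-Eed-MADM library lay below every control library, and 1 of them lay just above the lowest Eed-MADM library. The level was 2.17-fold lower than in control-MADM (log2 -1.12 ± 0.21, adjusted p = 0.0016) and 2.14-fold lower than in Eed-MADM (adjusted p = 0.00083). At P0 it was at 65.5, 55.3, 56.5, 112 and 90.2 CPM in control-MADM and 71.0, 111, 82.5 and 80.6 CPM in cKO-Eed-MADM, with overlap. The antisense gene Sox5os1 shares 1330 exonic bases with Sox5, and reads that fall on both genes are counted for neither in the unstranded column.

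Foxp2, a forkhead factor of layer VI neurons, was low at P0 in control-MADM and higher in both mutants. Its P0 level was 4.83, 2.82, 4.00, 6.67 and 7.03 CPM in control-MADM, 10.9 to 20.6 CPM with a median of 13.02 CPM in Eed-MADM, and 15.8, 11.8, 9.75 and 8.27 CPM in cKO-Eed-MADM. Neither mutant overlapped with the control. The fold over control-MADM was 2.81 in Eed-MADM (log2 1.49 ± 0.28, adjusted p = 0.0053) and 2.25 in cKO-Eed-MADM (1.17 ± 0.32, adjusted p = 0.00996), and the latter call was lost without cKO-Eed-MADM replicate 1 (adjusted p = 0.052) or in a fit of only the 2 groups (0.0695). The mutants themselves differed by -0.32 on the log2 scale (95% interval -0.89 to 0.24). At E16.5 Foxp2 ranged from 6.41 to 33.2 CPM over the 12 libraries with all groups overlapping.

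Tle4, a Groucho-family corepressor of corticothalamic neurons, was called in no comparison. At P0 it was at 26.3, 37.0, 17.3, 17.2 and 19.2 CPM in control-MADM, 25.0 to 54.7 CPM with a median of 32.3 CPM in Eed-MADM, and 43.3, 21.1, 29.8 and 50.3 CPM in cKO-Eed-MADM. The log2 difference from control-MADM was 0.60 ± 0.24 in Eed-MADM, with 0.63 ± 0.28 in cKO-Eed-MADM, and the adjusted p values were 0.189 and 0.0999. It was called in cKO-Eed-MADM without control replicate 2 (adjusted p = 0.027) or without cKO-Eed-MADM replicate 2 (0.0328).

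Zfpm2 (FOG2), a zinc-finger cofactor that binds GATA factors and marks corticothalamic neurons, was higher in cKO-Eed-MADM at both late ages. At E16.5 it was at 23.3, 11.6 and 19.8 CPM in control-MADM, 22.3, 7.73, 14.0, 14.9 and 18.1 CPM in Eed-MADM, and 53.3, 60.9, 79.6 and 46.4 CPM in cKO-Eed-MADM. At P0 it was at 11.8, 13.2, 18.8, 7.96 and 2.68 CPM in control-MADM, 7.47 to 23.4 CPM with a median of 12.7 CPM in Eed-MADM, and 35.3, 44.0, 39.0 and 23.7 CPM in cKO-Eed-MADM. At both ages every cKO-Eed-MADM library lay above all others, while Eed-MADM and control-MADM overlapped. The fold over control-MADM was 3.26 at E16.5 (log2 1.71 ± 0.34, adjusted p = 0.0027) and 3.24 at P0 (1.70 ± 0.41, adjusted p = 0.0033), and over Eed-MADM 3.89 and 2.46 (adjusted p = 0.000155 and 0.0090).

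The GATA factors, the binding partners of Zfpm2, were listed beside it. Of the 6, 4 passed the filter on low counts, and these 4 passed it only through the cKO-Eed-MADM libraries, so their levels are a description there and their calls are not counted. At E16.5 the 6 summed to at most 1.35 CPM in control-MADM and 3.36 CPM in Eed-MADM, and to 23.9 to 70.6 CPM in cKO-Eed-MADM. Gata4, which had no read in any control library of either age, stood at least 86.5-fold above the level of 3 reads over the control group at E16.5 and at least 289.6-fold above it at P0. The 6 summed GATA levels at P0 ran from 0 to 0.215 CPM in control-MADM, from 1.27 to 9.04 CPM in Eed-MADM and from 84.6 to 117 CPM in cKO-Eed-MADM. In Eed-MADM against control-MADM at P0, Zfpm2 itself was not called (log2 0.40 ± 0.35, adjusted p = 0.584).

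Nr4a2 (NURR1), an orphan nuclear receptor of subplate and deep layer VI cells, was higher in both mutants at E16.5. It was at 68.9, 65.9 and 55.8 CPM in control-MADM, 121, 118, 99.1, 110.1 and 139 CPM in Eed-MADM, and 382, 463, 389.8 and 304 CPM in cKO-Eed-MADM, with no overlap between any of the groups. The fold over control-MADM was 1.85 in Eed-MADM (log2 0.88 ± 0.16, adjusted p = 0.0178) and 6.06 in cKO-Eed-MADM (2.60 ± 0.17, adjusted p = 5.59e-08), and cKO-Eed-MADM stood 3.28-fold above Eed-MADM (adjusted p = 4.13e-07). The Eed-MADM call was lost without control replicate 1, 2 or 3 (adjusted p = 0.0681, 0.145 and 0.139), with a log2 fold change of 0.82 to 0.95.

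At P0 Nr4a2 spread widely within each group. It was at 91.8, 77.0, 17.2, 11.8 and 54.5 CPM in control-MADM, 44.2 to 166 CPM with a median of 131 CPM in Eed-MADM, and 272, 435, 127 and 138 CPM in cKO-Eed-MADM. Each cKO-Eed-MADM library lay above all control libraries, with a 4.78-fold difference (log2 2.26 ± 0.58, adjusted p = 0.0092). Eed-MADM overlapped with both other groups and was called against neither (adjusted p = 0.302 and 0.0918), though a fit of only the 2 mutant groups gave an adjusted p of 0.0379. Among the control libraries, Ldb2 was also highest in replicates 1 and 2, at 84.5 and 63.2 CPM against 24.5 to 34.5 CPM in the other 3.

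At E12.5 no member was called in any of the 3 comparisons, and 0% of 18100 genes were called in Eed-MADM against control-MADM, 0% in cKO-Eed-MADM against control-MADM and 0% in cKO-Eed-MADM against Eed-MADM. At an unadjusted p under 0.05 the members counted 1, 0 and 0, where 3.78%, 7.08% and 7.27% of genes did, and DESeq2 called 0 in each. Of all 18100 genes, DESeq2 called 0 in Eed-MADM against control-MADM. In cKO-Eed-MADM it called 4 higher and 2 lower against control-MADM, and 0 higher and 1 lower against Eed-MADM. The member with an unadjusted p under 0.05 was Foxp2, at 69.4, 87.9, 82.4, 121 and 11.1 CPM in control-MADM and 16.3 to 71.8 CPM with a median of 32.9 CPM in Eed-MADM (log2 -1.04 ± 0.40, adjusted p = 1). Levels varied greatly between libraries of 1 group at this age. Bcl11b, for example, ran from 117 to 516 CPM in control-MADM and from 95.2 to 624 CPM in Eed-MADM. The median biological coefficient of variation in edgeR was 0.629 at E12.5 against 0.281 at E16.5, so only large differences were detectable.

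At E13.5 all 10 members had a fold change above 0 over control-MADM in either mutant, but none passed the test. Pan-neuronal genes had similar medians. For cKO-Eed-MADM the median log2 fold change over control-MADM was 0.84 for the members, 0.79 for 12 pan-neuronal genes and -0.42 for progenitor genes. The Eed-MADM medians, in the same order, were 0.41, 0.49 and 0.03. Pan-neuronal genes summed to 8083 to 8463 CPM in cKO-Eed-MADM and 5643 to 6662 CPM in control-MADM. The part of the mix of sorted cells in the members' rise was not tested. Of the 10 members, 6 had every cKO-Eed-MADM library above every control library (Bcl11b, Tbr1, Zfpm2, Ldb2, Crym and Nr4a2), where 10.5% of 13448 genes did. No member was called by edgeR in Eed-MADM against control-MADM, cKO-Eed-MADM against control-MADM or cKO-Eed-MADM against Eed-MADM, where 0%, 0.0372% and 0.0223% of genes were. At an unadjusted p under 0.05 the members counted 1, 5 and 0, where 6.13%, 10.3% and 5.00% of genes did, and DESeq2 called 0, 1 and 0. The 1 was Tbr1, at 174 and 302 CPM in control-MADM, 342 and 581 CPM in Eed-MADM, and 484, 567, 550.0 and 629 CPM in cKO-Eed-MADM (log2 1.23 ± 0.32 against control-MADM, edgeR adjusted p = 0.141, DESeq2 0.0061). Of all 13448 genes, DESeq2 called 17 higher and 23 lower in Eed-MADM against control-MADM. In cKO-Eed-MADM it called 198 higher and 89 lower against control-MADM, and 48 higher and 8 lower against Eed-MADM.

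The E13.5 control group held only 2 libraries, and these differed. Of the 10 members, 9 were lower in replicate 1 than in replicate 3, where 50.3% of all genes were. Bcl11b stood at 194 and 468 CPM, Sox5 at 97.0 and 279.8 CPM, Ldb2 at 1.85 and 20.8 CPM and Crym at 0.411 and 7.77 CPM, while Fezf2 was nearly equal at 354 and 359 CPM and Nr4a2 was the 1 member lower in replicate 3. Without replicate 3 only 1 control library remained, so effect sizes alone are given. The log2 fold change in cKO-Eed-MADM was then 1.65 for Bcl11b, 1.67 for Tbr1, 4.11 for Ldb2 and 5.37 for Crym. In Eed-MADM that of Ldb2 was 3.78.

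The sequence of ages was read in control-MADM from E13.5 to P0, in a joint fit of 9 groups. From E16.5 to P0, 6 of the 10 members were lower, where 5.77% of 13926 genes were, and all 10 had a log2 fold change under 0. Fezf2 fell most, from 263, 233 and 274 CPM to 17.9 to 54.0 CPM, or 7.95-fold (log2 -2.99 ± 0.28, adjusted p = 2.06e-09). Foxp2 fell 3.90-fold, Sox5 3.16-fold and Bcl11b 2.75-fold (adjusted p = 0.000745, 6.04e-06 and 2.71e-05). Tbr1 was 1.59-fold and Ldb2 2.12-fold lower (adjusted p = 0.0326 and 0.0387), and these 2 calls were lost without any 1 of the 3 E16.5 control libraries and without P0 control replicate 5 or 6, and for Ldb2 also replicate 4, with adjusted p from 0.0568 to 0.12. With all green libraries their adjusted p was 0.884 and 0.151. Tle4, Zfpm2, Crym and Nr4a2 were not called (log2 -0.40, -0.82, -0.99 and -0.39). Crym was called lower without P0 control replicate 2 (log2 -1.89, adjusted p = 0.0113) and with no filter on low counts (-0.99, adjusted p = 0.0023). The upper-layer genes, listed for comparison, summed to 1789.6 to 2019.6 CPM at E16.5 and 1759 to 2558 CPM at P0 in the same cells. Pan-neuronal genes summed to 10540 to 11621 CPM and then to 5499 to 10684 CPM there. Corticothalamic, layer VI and subplate genes summed to 455 to 609 CPM and then to 216 to 360 CPM. Progenitor genes summed to 923 to 1151 CPM and then to 2725 to 7249 CPM. The part of the mix of sorted cells in the members' fall was not tested.

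From E13.5 to E16.5 Ldb2 was higher and Bcl11b lower in control-MADM, 1 member in each direction, where 8.44% of genes were called higher and 7.32% lower. Ldb2 went from 1.85 and 20.8 CPM to 93.8, 97.7 and 95.3 CPM, 8.21-fold (log2 3.04 ± 0.54, adjusted p = 0.000122), and without E13.5 control replicate 1 or 3 the log2 value was between 2.20 and 5.69 and still called. Bcl11b went from 194 and 468 CPM to 223, 128 and 171 CPM, 1.90-fold lower (adjusted p = 0.0252), and lost its call without E13.5 control replicate 3 (log2 -0.14, adjusted p = 0.805) or E16.5 control replicate 2 (0.13) or 3 (0.0626), or with all green libraries (0.113).

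**Figure D3:**
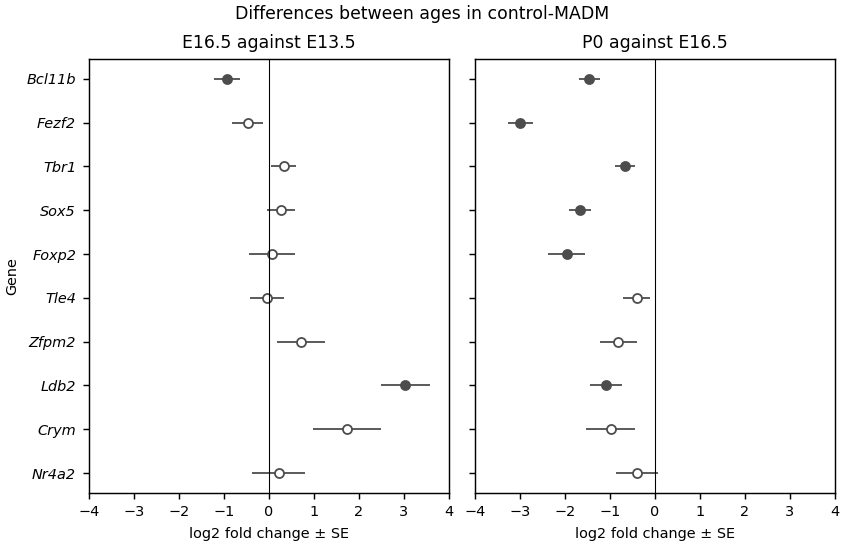
Log2 fold change (horizontal axis, bars ± SE) of each member (vertical axis) in control-MADM, from E13.5 to E16.5 on the left and from E16.5 to P0 on the right, with filled points for an adjusted p under 0.05 and open points for the rest. On the right all 10 points lie under 0, with Fezf2 farthest at -2.99, and on the left Ldb2 lies farthest above 0 at 3.04.

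Whether a mutant effect changed with age was tested as an interaction in the joint fit. For Sox5 the cKO-Eed-MADM effect at E16.5 was lower than at E13.5 by 1.82 ± 0.40 on the log2 scale (adjusted p = 0.0045), and at P0 it was higher than at E16.5 by 1.32 ± 0.35 (adjusted p = 0.0445). Tbr1 had a cKO-Eed-MADM effect that was lower at E16.5 than at E13.5, with a difference of -1.201 ± 0.36 (adjusted p = 0.0424). These were 2 of 10 members where 1.94% of genes were called lower between E13.5 and E16.5, and 1 of 10 where 0.402% were called higher between E16.5 and P0. Sox5 at E13.5 stood at 97.0 and 279.8 CPM in control-MADM and at 332, 284, 269.9 and 337 CPM in cKO-Eed-MADM. The first Sox5 call was lost without E13.5 control replicate 1 (adjusted p = 0.177), which also took the Tbr1 value to an adjusted p of 0.503. The second Sox5 call was lost in 15 of 35 alternatives and the Tbr1 call in 12 of 35, with adjusted p from 0.0515 to 1 and from 0.0542 to 0.503.

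No member's Eed-MADM effect differed between ages by edgeR or DESeq2, where 0.201% of genes differed between E13.5 and E16.5 and 0.0215% between E16.5 and P0. At an unadjusted p under 0.05 there were 1 and 2 members, where 8.69% and 10.00% of genes were, and the largest interaction was that of Foxp2 from E16.5 to P0 (log2 1.34 ± 0.51, adjusted p = 0.369). For Fezf2 the value was 1.25 ± 0.35 (adjusted p = 0.203).

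Other genes of the layers were counted from fixed lists. Of all genes tested in cKO-Eed-MADM against control-MADM, 6.16% were called higher and 2.42% lower at E16.5. At P0 these shares were 14.2% and 10%, and they hold for each list count that follows in that comparison. Of the subcerebral and layer V genes, 2 of 10 tested were called higher and 0 lower in cKO-Eed-MADM at E16.5 (1 of them, Cdh22, passed the filter only through that paradigm), and 5 of 11 higher and 0 lower at P0, with median log2 fold changes of 0.33 and 0.88. Cdh22, a cadherin, was the strongest at P0 (log2 3.54 ± 0.42), ahead of Cdh13 (1.67 ± 0.24) and Igfbp4 (1.17 ± 0.20).

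Corticothalamic, layer VI and subplate genes went in both directions. In cKO-Eed-MADM against control-MADM, 2 of 11 were higher and 3 lower at E16.5, and 5 were higher and 2 lower at P0. Ppp1r1b, which encodes the dopamine-regulated phosphatase inhibitor DARPP-32, was lower at both ages (log2 -2.44 ± 0.31 and -2.30 ± 0.37), as was Ntsr1, the neurotensin receptor (-1.69 ± 0.26 and -2.34 ± 0.51). Rprm was higher at P0 (1.24 ± 0.26). Lpar1 was lower at E16.5 (-2.95 ± 0.48) and higher at P0 (1.199 ± 0.42).

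Regulators of deep-layer identity outside the 10 were lower where they were called. Of 11 tested, 6 were lower in cKO-Eed-MADM at E16.5, while 9 were lower at P0, with 0 higher at either age and medians of -0.57 and -1.29. Pou3f1, a POU-domain transcription factor, was at log2 -1.15 ± 0.19 and -2.63 ± 0.20. Upper-layer genes were lower for 6 of 10 at both ages and higher for 0 and 2, with Unc5d at -2.71 ± 0.29 and -3.42 ± 0.19.

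Genes of other cell types were read in the same libraries, where 6.16% of all genes were called higher and 2.42% lower at E16.5. At P0 the shares were 14.2% and 10%. Striatal and interneuron genes were higher for 8 of 12 and lower for 0 at E16.5, where their 13 summed levels were 429 to 688 CPM in cKO-Eed-MADM and 14.5 to 40.6 CPM in control-MADM. At P0, 4 of 11 were higher (among them Isl1 and Ebf1) and 5 lower (among them Dlx1 and Dlx2). Cajal-Retzius and hippocampal genes were higher for 3 and then 5 of 7. Microglia genes were higher for 2 of 4 and 5 of 5, with sums at P0 of 124 to 242 CPM in cKO-Eed-MADM against 7.36 to 23.9 CPM in control-MADM, and meningeal genes for 1 of 3 and 5 of 5, with sums of 101 to 240 CPM against 8.53 to 16.3 CPM. Endothelial sums were at most 39.8 CPM at these ages. Pan-neuronal genes were higher for 3 and lower for 2 of 12 at E16.5, higher for 2 and lower for 4 at P0, and progenitor genes were higher for 2 and lower for 1 of 10, then higher for 2 and lower for 3. Some of these genes passed the filter on low counts only through cKO-Eed-MADM: 5 of the striatal and interneuron genes tested at E16.5 (2 of the 8 called) and 2 at P0 (2 of the 4 called higher), both microglia genes called at E16.5, and 3 of the 5 meningeal genes called at P0. So did Lhx1, 1 of the 5 Cajal-Retzius and hippocampal genes called higher at P0. All 10 members passed the filter without the cKO-Eed-MADM libraries. The part of these cell types in the members' differences was not tested.

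In Eed-MADM against control-MADM the 13 lists were counted together. At E16.5, 1 of 99 tested was higher (Mapt, a pan-neuronal gene), where 0.24% of all genes were, and 0 were lower. At P0, 6 of 103 were higher and 1 was lower (Dlx2), where 1.52% of all genes were higher and 0.233% lower. Of the 6, Cdh22, Ebf1 and Isl1 passed the filter on low counts without the cKO-Eed-MADM libraries. Gata2, Gata3 and Gata6 passed it only through those libraries, and their calls are set aside. In either mutant edgeR called 0 of 112 at E12.5 and 0 of 87 at E13.5. The count at an unadjusted p under 0.05 was 9 and 16 in Eed-MADM (3.78% and 6.13% of all genes) and 12 and 27 for cKO-Eed-MADM (7.08% and 10.3%).

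**Figure D4:**
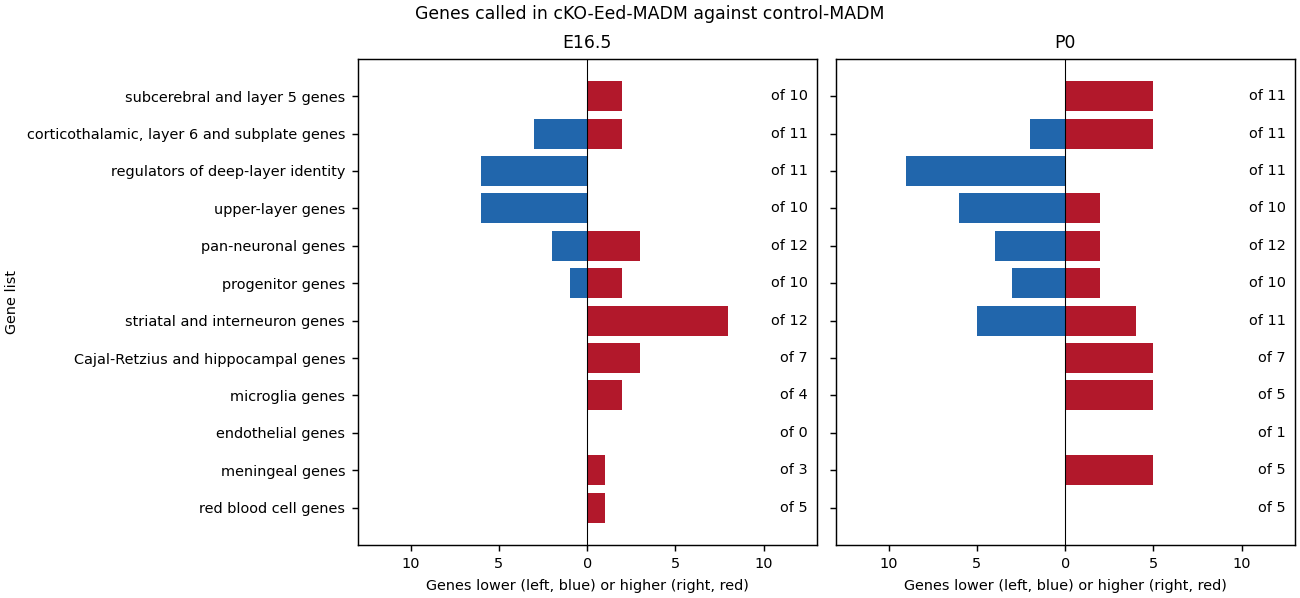
Number of genes of each list called lower (left) or higher (right) in cKO-Eed-MADM than in control-MADM at E16.5 and P0 on the horizontal axis, for 12 of the 13 lists, with the number tested at the right edge. Regulators of deep-layer identity have bars only to the left (6 and 9 of 11), and subcerebral and layer V genes only to the right (2 of 10 and 5 of 11). Of all genes tested, 2.42% were lower and 6.16% higher at E16.5, and 10% and 14.2% at P0.

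The balance of Bcl11b to the upper-layer gene Cux1, which does not depend on library scaling, was compared as the log2 ratio of their read counts within each library. At E16.5 it was 0.59 ± 0.22 (SD, n = 4) in cKO-Eed-MADM, -1.07 ± 0.33 (n = 3) in control-MADM and -0.83 ± 0.64 (n = 5) in Eed-MADM, with every cKO-Eed-MADM library above every other. The difference from control-MADM was 1.66 (2-sided exact permutation test p = 0.057, the smallest that 4 and 3 libraries allow) and from Eed-MADM 1.42 (exact p = 0.016, also the smallest possible). At P0 the ratio was -1.17 ± 0.67 in cKO-Eed-MADM, -2.28 ± 0.53 in control-MADM and -2.03 ± 0.30 in Eed-MADM (exact p = 0.048 and 0.017). The ratio of Bcl11b to Tbr1, a layer V to a layer VI factor, was higher in cKO-Eed-MADM at P0 by 0.81 than in control-MADM (exact p = 0.079) and by 0.64 than in Eed-MADM (exact p = 0.011). Of 24 such comparisons none passed 0.05 after Benjamini-Hochberg adjustment, and the lowest adjusted p was 0.134.

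**Figure D5:**
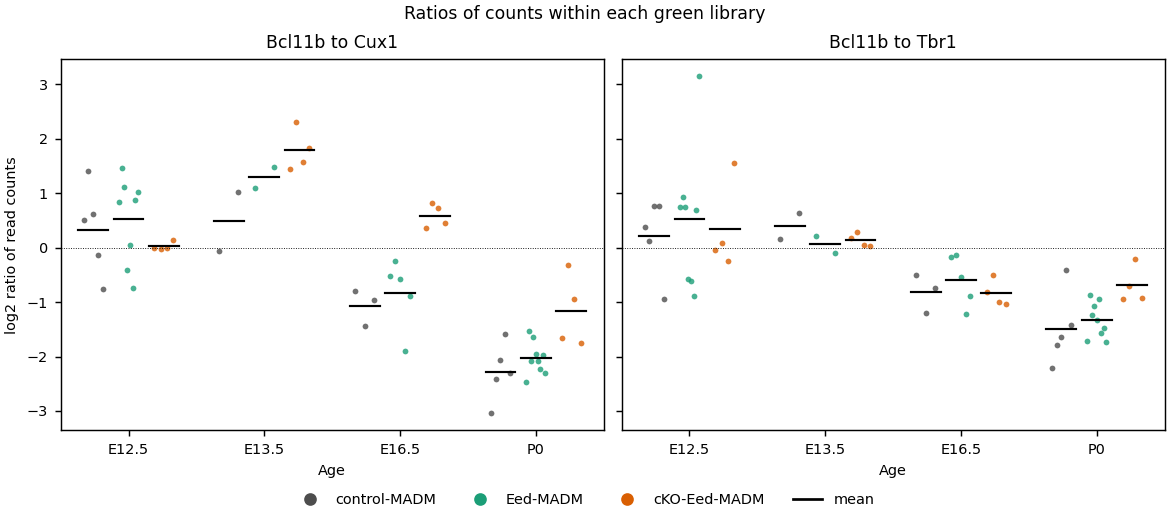
Log2 ratio of read counts of Bcl11b to Cux1 and of Bcl11b to Tbr1 (vertical axes) in each green library by age (horizontal axis), with bars at the group means. At E16.5 the 4 cKO-Eed-MADM libraries lie between 0.35 and 0.82 for Bcl11b to Cux1 and all other libraries lie below 0.

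The order of the members by level was compared per kilobase of exon. Fezf2 led at the 3 embryonic ages in control-MADM, where it had 87.3, 117 and 84.2 CPM per kilobase, followed by Tbr1 with 46.2, 43.4 and 54.5. At P0 Tbr1 led with 35.7 CPM per kilobase, and Ldb2, Nr4a2 and Fezf2 followed at 14.1, 12.4 and 11.1, which lie closer to each other than their libraries spread. In cKO-Eed-MADM Crym led at E16.5 and P0 with 115 and 130.2 CPM per kilobase, and Nr4a2 came next with 94.8 and 59.8. Foxp2 was the lowest member in all paradigms at these 2 ages, at 0.310 to 1.29.

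Likeness of pattern was described over the 12 group means of log2(CPM + 1), which share libraries and normalization, among 11993 genes with at least 5 CPM on average. For Bcl11b the most alike were Trim36 (Pearson r = 0.955), Ppp1r14a (0.947) and Cyb5r4 (0.940). Fezf2 was most like Mrrf (0.983), Bcl11b (0.930) and Nxph4 (0.929). For Tbr1 the closest were Eef1akmt1 (0.954), Snapc3 (0.949) and Calm2 (0.906), and among the members Sox5 (0.810).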

How the data were processed

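The samples were sorted green cells of pooled cortices, sequenced by bulk Smart-Seq2. Counts of reads on each gene were deposited by the authors, who made them with STAR in its gene count mode from reads that align to 1 place in mm10, without normalization. The unstranded column was used, since either strand held 49.6% to 51.4% of the stranded counts. Reads in no gene or in several genes, 13.4% to 40.1% of uniquely aligned reads, stayed out of library sizes. Near-identical genes are undercounted, and the annotation release was not given in the sources used here. In all 53274 of 53379 identifiers matched GENCODE M21 (GRCm38), which gave symbols, coordinates and exon lengths.

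Group, age and replicate came from the labels. The test was edgeR's quasi-likelihood test (version 4.0.16, R 4.3.3) on TMM-scaled counts with Benjamini-Hochberg adjustment, the 3 paradigms of an age sharing 1 fit. Genes needed a mean count above 1 at E12.5 and above 10 at later ages. Ages and interactions were tested in a joint fit of the 38 libraries of E13.5, E16.5 and P0. Ratios of counts, with 0.5 added to each, were compared with 2-sided exact permutation tests (scipy 1.17.1, numpy 2.4.6, pandas 2.3.3). A fold against a group without reads was set against 3 reads over the group. Intervals are at 95% and cover the spread between libraries.

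The 10 genes and the lists were chosen with earlier results of these data known. All 10 genes were named, with Eed, up to 3 genes per list by lowest adjusted p in a comparison, and for Bcl11b, Fezf2 and Tbr1 the 3 genes most alike in pattern. Some genes that this rule names are not reported here. Alternatives were DESeq2 1.42.0, edgeR with the size factors of DESeq2, low counts kept, all green libraries, only the 2 groups compared, a replicate block, counts of 1 strand, and leaving out each library of groups of 2 to 5. The tests were checked on simulated counts. The 48 red and yellow libraries, and 13 green libraries under the limits, were not used in the main tests.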

Additional observations from a re-analysis of the deposited data

Results flagged for a closer look

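In 4 of 90 groups of 4 to 10 libraries, 1 library lay apart from the rest, where chance gives about 1 in 20. Bcl11b was at 107.8 CPM in Eed-MADM replicate 2 at P0, against 67.7 to 87.6 CPM in the other libraries of that group. Crym was at 14.1 CPM in cKO-Eed-MADM replicate 5 at E12.5 (5.11 to 6.64 CPM in the others) and at 488.2 CPM in cKO-Eed-MADM replicate 2 at E16.5 (352 to 368 CPM). Sox5 was at 136 CPM in cKO-Eed-MADM replicate 1 at E16.5 (92.0 to 97.6 CPM), and the calls of Sox5 and Crym against control-MADM held without those libraries.

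Of 40 interaction tests on the members, 3 passed an adjusted p of 0.05 in edgeR. The cKO-Eed-MADM effect on Sox5 was -1.824 ± 0.40 (log2) at E16.5 relative to E13.5 (adjusted p = 0.0045) and 1.316 ± 0.35 at P0 relative to E16.5 (adjusted p = 0.0445). The effect on Tbr1 was -1.201 ± 0.36 at E16.5 relative to E13.5 (adjusted p = 0.0424). All 3 use the same E16.5 libraries, and the values relative to E13.5 use the 2 E13.5 control libraries, whose Sox5 levels were 97.0 and 279.8 CPM and whose Tbr1 levels were 174 and 302 CPM.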

How the results depend on the processing

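The direction of each member's fold change was kept in all alternatives run for the called members, and of the values of single members under an alternative 3932 kept their side of the threshold, 40 became called, 57 lost the call and 1 reversed. With all green libraries Tle4 in Eed-MADM against control-MADM at E13.5 reversed to a log2 fold change of -3.26, and the number of members called there was 1 instead of 0 (0 to 1 on leaving out libraries). In cKO-Eed-MADM against control-MADM at E13.5, DESeq2 called 1 and no filter 1 instead of 0, and leaving out libraries gave 0 to 4. At E16.5 Eed-MADM against control-MADM gave 1 in a fit of only the 2 groups and 0 to 2 on leaving out libraries, instead of 2. For E16.5 against E13.5 in control-MADM the range was 1 to 3 around 2. The count for the Eed-MADM effect was 0 to 1 between E13.5 and E16.5 on leaving out libraries, and 1 between E16.5 and P0 without a filter, instead of 0. For the cKO-Eed-MADM effect between E13.5 and E16.5, instead of 2, no filter gave 5, all green libraries 1 and leaving out libraries 0 to 4. Between E16.5 and P0, instead of 1, DESeq2 gave 2, no filter 2, all green libraries 0, 1 strand 0 and leaving out libraries 0 to 2. The causes were not tested. No ratio passed the adjusted threshold in an alternative. On leaving out 1 library the sign of the Bcl11b to Tbr1 difference changed in cKO-Eed-MADM against control-MADM at E12.5 (-0.286 to 0.317) and E16.5 (-0.215 to 0.130), against Eed-MADM at E12.5 (-0.591 to 0.011) and E13.5 (-0.0848 to 0.224), and in Eed-MADM against control-MADM at P0 (-0.0072 to 0.443), and that of Bcl11b to Cux1 in Eed-MADM against control-MADM at E12.5 (-0.0773 to 0.465).

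Replicate numbers are shared between groups, but deviations of same-numbered libraries correlated between -0.166 and 0.377, with no pair of groups over 0.1 throughout, so the numbers were not taken to pair libraries. With a replicate block the cKO-Eed-MADM effect between E16.5 and P0 gave 0 members instead of 1, Zfpm2 lost its P0 call against Eed-MADM (log2 0.81, adjusted p = 0.115) and Ldb2 and Nr4a2 gained one there (-0.69 and 1.45). No paired value exists for control-MADM between ages, since a block holds 1 age. The alternative of all green libraries does not apply at E16.5, where all were used. Depth limits E12.5 most, with at most 2359317 reads on genes per library.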

Other observations

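Summed over the 10 genes, the level at P0 was 399 to 608 CPM in control-MADM, 576 to 768 CPM in Eed-MADM and 979 to 1499 CPM in cKO-Eed-MADM, and Crym alone supplied 350.3 to 536 CPM of the last. At E16.5 the sums were 1116 to 1306, 935 to 1457 and 1536 to 1924 CPM in the same order. Bcl11b lay within 46.1 to 108 CPM in all 18 libraries of P0 while Crym in the same libraries ran from 0.333 to 536 CPM. Nr4a2 in Eed-MADM at P0 stood at 44.2 to 64.1 CPM in 4 libraries and at 131 to 166 CPM in the other 5, with none between.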
